A study of Mus musculus with 4 samples.

Results

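The proteasome genes of denervated tibialis anterior (TA) muscle are described here: every gene of the count table whose symbol begins with Psma, Psmb, Psmc, Psmd, Psme, Psmf or Psmg followed by a digit. This rule uses the symbol alone and found 48 of 13825 genes. They were sorted by role into 7 core alpha subunits, 10 core beta subunits (7 constitutive and 3 inducible), 6 ATPases, 14 Psmd genes of the lid, the base and its chaperones, 5 activator genes, 1 inhibitor, 4 assembly chaperones and Psmc3ip. Psmc3ip, a meiotic recombination factor named for its binding to Psmc3, is not a subunit, and Psme2b is a retrogene copy of Psme2.

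The study asked how loss of the hormone Fgf21 changes muscle wasting after nerve injury. Adult male mice were either wild type (WT), which the study's methods give as C57BL/6J, or Fgf21KO, a deletion of Fgf21 in the whole body whose strain background is not given in the sources used here. The sciatic nerve of 1 leg was transected by excision of a segment, and the opposite leg kept its nerve and served as control, called sham in the labels. TA muscles were taken after 14 days, and 4 muscles of each group were pooled into 1 library. WS and WD stand for the sham and the denervated library of WT mice, and KS and KD for those of Fgf21KO mice. The study's methods describe sham and denervation on both legs of the same mice for expression work. With 1 library per group no pairwise comparison has a replicate check, and intervals below (95%) cover counting error only. Levels are in CPM, counts brought to a common library total after scaling by TMM (trimmed mean of M-values), and ratios are on the log2 scale of CPM. Where 4 levels stand in a row without names, they follow the order WS, WD, KS, KD, and where a pair of ratios does, WT comes before Fgf21KO.

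The proteasome degrades proteins tagged with ubiquitin and does most of the regulated proteolysis of a cell. Its core particle is a barrel of alpha rings that gate the entrance and beta rings that hold the proteolytic sites, and its regulatory particle has a base with an ATPase ring that unfolds substrates and a lid that removes ubiquitin. Activators can replace the regulatory particle at the ends of the core, and interferon induces replacement catalytic subunits that form the immunoproteasome. In atrophying muscle the ubiquitin-proteasome system breaks down proteins, myofibrillar ones among them, and muscle-specific ligases such as Fbxo32 tag part of its substrates.

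RefSeq start regions from 250 bases before to 50 bases after the transcription start (GRCm38.p6, an earlier build than the GRCm39 named in the submitters' processing notes) were matched for 41 of the 48 genes. The 4 regions below belong to genes on which the results turn. Psmc1 and Psmb5 rose with denervation. Psme4 and Psme1 fell with TMM scaling, and neither was called with total counts only. Capitals mark the motif matches, searched on both strands. They are CCAAT (NF-Y) at -175 in Psmc1, TGACNNNGC (antioxidant response element, read by Nfe2l1 and Nfe2l2) at -47 in Psmb5 and, on the reverse strand, at -7 in Psme4, and the interferon-stimulated response element, on the reverse strand, at 10 in Psme1, where positions give the first base from the start.
Psmc1 (chr12:100109952-100110251, plus strand): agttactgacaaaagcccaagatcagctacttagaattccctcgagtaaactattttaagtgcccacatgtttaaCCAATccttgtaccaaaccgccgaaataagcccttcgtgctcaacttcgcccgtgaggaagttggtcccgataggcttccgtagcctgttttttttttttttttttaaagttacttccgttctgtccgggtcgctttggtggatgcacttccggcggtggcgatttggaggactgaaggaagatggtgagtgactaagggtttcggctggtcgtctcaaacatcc
Psmb5 (chr14:54617946-54618245, minus strand): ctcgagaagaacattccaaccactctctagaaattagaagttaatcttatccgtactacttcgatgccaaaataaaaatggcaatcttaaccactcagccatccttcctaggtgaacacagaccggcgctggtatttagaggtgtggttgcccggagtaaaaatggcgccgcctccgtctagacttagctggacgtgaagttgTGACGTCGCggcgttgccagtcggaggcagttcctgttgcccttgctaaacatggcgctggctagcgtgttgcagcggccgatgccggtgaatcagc
Psme4 (chr11:30771525-30771824, plus strand): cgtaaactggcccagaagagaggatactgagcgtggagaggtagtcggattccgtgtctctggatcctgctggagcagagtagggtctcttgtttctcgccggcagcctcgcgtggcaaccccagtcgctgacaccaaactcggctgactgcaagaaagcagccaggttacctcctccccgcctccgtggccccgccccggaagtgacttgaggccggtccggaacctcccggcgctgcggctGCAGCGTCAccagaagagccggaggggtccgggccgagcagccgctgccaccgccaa
Psme1 (chr14:55578244-55578543, plus strand): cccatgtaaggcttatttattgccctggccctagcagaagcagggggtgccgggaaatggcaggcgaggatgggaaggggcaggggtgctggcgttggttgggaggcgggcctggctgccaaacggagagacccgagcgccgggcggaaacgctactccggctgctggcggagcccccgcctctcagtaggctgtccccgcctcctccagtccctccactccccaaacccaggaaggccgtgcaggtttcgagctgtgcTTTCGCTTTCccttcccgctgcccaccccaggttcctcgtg

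Of the 41 genes with such a region, 6 held TGACNNNGC (14.6%, against 14% of 27025 genes), 14 held CCAAT (34.1% against 41.1%) and 0 held GTAAACA, the FoxO motif (against 4.05%). The interferon-stimulated response element was held by 5 (12.2% against 3.99%), namely Psmb3, Psmd4, Psmd9, Psme1 and Psmg4. The 6 holders of TGACNNNGC were Psmb5, Psmb6, Psmc6, Psmd9, Psmd12 and Psme4. Their median denervation log2 ratio in WT muscle was 0.36, against 0.49 in the genes with a region and no match. A match is only a description of these letters, and binding was not measured.

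The libraries held 25249879 (WS), 29150147 (WD), 34141303 (KS) and 27740920 (KD) counts, in which 3 counts correspond to 0.0919 to 0.129 CPM. The 13 protein-coding mitochondrial genes took 27.0% and 30.4% of counts in WS and KS and 19.4% and 20.6% in WD and KD. All 48 proteasome genes were among the 13084 genes tested (mean count of at least 10). The genotype labels had no check from the deleted gene, since Fgf21 was not analysed here. Of 10 myofibre markers only Myh1, Mylpf and Tnni2 were analysed here. Their summed level was 41908 CPM in WS and 40566 in KS, against 25473 in WD and 27722 in KD, and all 3 fell with denervation (2 with total counts only). Germ cell, satellite cell and Schwann cell markers were not analysed here. In whole muscle, fewer cells of a type and less RNA per cell cannot be told apart.

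Proteasome genes took a larger share of the counts in denervated than in sham muscle of both genotypes. The 48 genes together took 0.443% of counts in WS and 0.442% in KS, and 0.742% in both WD and KD. In TMM-scaled units their summed level was 4809.6 CPM in WS and 5083 in KS, against 6624 in WD and 6655 in KD. The differences were broad and modest. By size, 1 of the 48 genes was at least 2-fold apart in each pair of libraries: the sparsely counted Psme2b in WD against WS (background 14.8%) and in KD against WD (1.55%), and Psmg4 in KD against KS (13.6%) and in KS against WS (2.04%). The median log2 ratio over the 48 genes was 0.40 for WD against WS and 0.41 for KD against KS, while that of all genes was 0.01 in both. The 31 constitutive subunits of core, base and lid (Sem1 and Adrm1, whose symbols fall outside the rule, not counted) all had a positive WD against WS ratio, from 0.09 to 0.98, with every counting interval above 0, and 14 of them were at least 1.5-fold higher. Over the 48 genes 38 intervals lay above 0 in WT (background 33%) and 36 in Fgf21KO muscle (33.6%). Counting intervals narrow as counts rise, and the median gene had 296 counts in WS and 431 in WD. The background shares were not matched for count, so they are not a like comparison for these mostly well-counted genes.

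Because each group is 1 library, denervation was tested across both genotypes with the quasi-likelihood test of edgeR, fitting genotype and surgery additively, with Benjamini-Hochberg adjustment over all genes. The fit has 1 residual degree of freedom and takes the other genotype as the replicate. Each adjusted p for denervation below comes from this test over all 4 libraries, also where it follows the ratios of single pairs. In that test 35 of the 48 genes rose and 3 fell, against 26.6% of all genes rising and 27% falling. Of the 31 constitutive subunits 29 rose and 0 fell, and the exceptions were Psma6 (log2 fold change 0.17, adjusted p = 0.0509) and Psmb2 (0.01, adjusted p = 0.915). The genes that fell were Psmb8, Psme1 and Psme4, and with total counts in place of TMM these 3 calls were lost while 31 of the 31 constitutive subunits rose. In single pairs 18 genes were at least 1.5-fold apart between WD and WS (background 34.7%), 16 of them higher in WD (17.1%) and 2 lower (17.7%). Between KD and KS 16 were apart (33.9%), 15 of them higher in KD (17.1%) and 1 lower (16.7%), and 14 were higher in both pairs (12.1%). The shares apart in either direction were thus near the background in both pairs, while the shares higher were above it and the shares lower below it. On the TMM scale both denervated libraries lay above both sham libraries in 37 of the 48 genes (background 38.1%) and below both in 4 (36.7%). The TMM factors were 0.92 and 0.87 for WS and KS and 1.12 for both WD and KD. With total counts only, the median of all genes lay at 0.29 in WD against WS and 0.36 in KD against KS, and 78.5% of the denervation calls over all genes were higher instead of 49.6%. Leukocyte markers rose in 9 of 10 genes analysed, with summed levels of 30.2 CPM in WS and 28.7 in KS, against 65.7 in WD and 67.7 in KD, and the part of this in the proteasome levels was not tested.

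**Figure D1:**
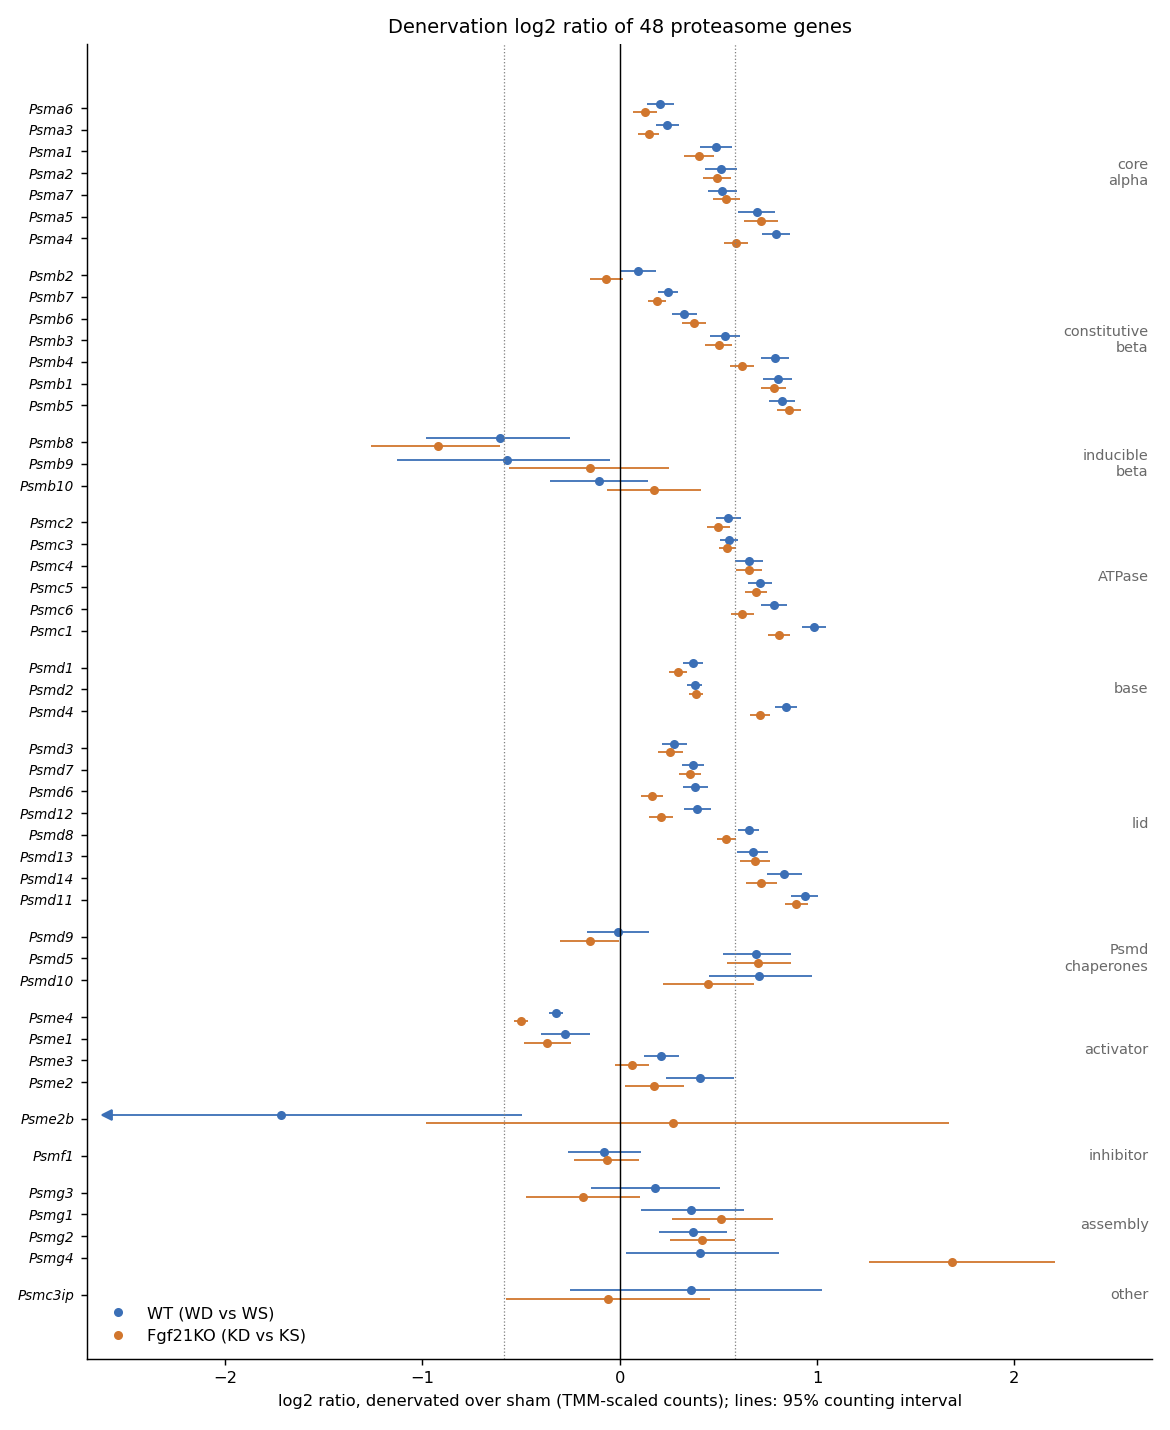
Log2 ratio of denervated over sham muscle (x axis, TMM-scaled counts) for each of the 48 genes (y axis), grouped by role, in WT (blue, WD against WS) and Fgf21KO (orange, KD against KS); lines are 95% counting intervals and dotted lines mark 1.5-fold. Alpha, constitutive beta, ATPase, base and lid genes lie to the right of 0 in WT muscle, whereas Psmb8, Psme1 and Psme4 lie to the left in both genotypes (with total counts only, Psme1 was at 0.008 in WT); the arrowhead marks the interval of Psme2b, which runs on to -4.27.

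Of the 7 alpha subunits, which form the outer rings and the gate of the core particle, 6 rose, by uneven amounts. Psma4 was at 101 CPM in WS and 118 in KS, and at 175 in WD and 178 in KD. Psma5 was at 57.6 CPM in WS and 55.9 in KS, and at 93.3 in WD and 91.7 in KD. The log2 ratios were 0.79 (WT) and 0.59 (Fgf21KO) for Psma4 and 0.69 and 0.72 for Psma5. At the other end, Psma3 was at 155 (WS) and 172 (KS) CPM in sham and at 184 (WD) and 191 (KD) CPM in denervated muscle, a small rise (log2 fold change 0.19, adjusted p = 0.0223). Psma6 was at 119.7 CPM in WS and 133 in KS, against 138 in WD and 145 in KD. Psma1, Psma2 and Psma7 lay between, with WT log2 ratios of 0.49, 0.51 and 0.52 and Fgf21KO ratios of 0.40, 0.49 and 0.54.

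The catalytic subunits of the standard core did not move by equal amounts. Psmb5, which carries the chymotrypsin-like site, was at 112 CPM in WS and 113 in KS and at 198 in WD and 205 in KD. Its log2 ratios were 0.82 (WT) and 0.86 (Fgf21KO), with adjusted p = 4.49e-11 in the additive test over both genotypes. Psmb6, the caspase-like subunit, was at 138 (WS) and 131 (KS) CPM in sham and at 174 (WD) and 169.6 (KD) CPM in denervated muscle, or 0.33 and 0.37. Psmb7, the trypsin-like subunit, was at 223 CPM in WS and 236 in KS, against 264 in WD and 269 in KD, or 0.25 and 0.19. All 3 rose, and both denervated libraries lay above both sham libraries for each, as in 38.1% of all genes. Within a library the balance between them shifted: Psmb6 counts were 123.5% of Psmb5 counts in WS and 116% in KS but 87.8% in WD and 82.8% in KD, and the log2 difference of the Psmb7 to Psmb5 ratio was -0.57 in WT and -0.67 in Fgf21KO muscle. Such ratios within a library do not depend on the scaling.

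The beta subunits without a proteolytic site were split in the same way. Psmb1 was at 93.3 (WS) and 101 (KS) CPM in sham and at 163 (WD) and 173 (KD) CPM in denervated muscle, and Psmb4 at 104 (WS), 114 (KS), 179 (WD) and 176 (KD). Psmb3 was at 88.2 CPM in WS and 93.4 in KS, against 128 in WD and 132 in KD. These 3 rose, with WT log2 ratios of 0.80, 0.79 and 0.53. Psmb2 was the flattest constitutive subunit, at 71.5 (WS) and 80.5 (KS) CPM in sham and at 76.2 (WD) and 76.8 (KD) CPM in denervated muscle, where the denervated levels lay between the sham levels.

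The inducible catalytic subunits, which replace the standard ones in the immunoproteasome, did not share this rise: 0 of 3 rose and 1, Psmb8, fell. Psmb8, the replacement for Psmb5, was counted 134 times in WS and 225 times in KS, against 123 times in both WD and KD. Its levels were 5.77 (WS), 7.57 (KS), 3.77 (WD) and 3.98 (KD) CPM, with both denervated libraries below both sham libraries (as in 36.7% of all genes). Its log2 fold change in the additive test was -0.78 (SE 0.20, adjusted p = 0.00132), and the call was lost with total counts only (-0.46, adjusted p = 0.0645). Psmb9, the replacement for Psmb6, was at 2.67 CPM in WS and 3.64 in KS, against 1.78 in WD and 3.26 in KD, and Psmb10, the replacement for Psmb7, at 10.37 (WS), 9.22 (KS), 9.65 (WD) and 10.41 (KD). Neither passed the test (adjusted p = 0.261 and 0.846). Per count of Psmb5, Psmb8 went from 5.15% (interval 4.29% to 6.12%) in WS to 1.903% (1.58% to 2.28%) in WD and from 6.70% (5.83% to 7.67%) in KS to 1.94% (1.61% to 2.32%) in KD. The log2 difference of this ratio was -1.43 in WT and -1.79 in Fgf21KO muscle. For Psmb9 over Psmb6 it was -0.92 and -0.53, and for Psmb10 over Psmb7 -0.35 and -0.02, the last with an interval of -0.25 to 0.22. Each of these differences includes the rise of the standard subunit, 0.82 and 0.86 for Psmb5. Psmb8 itself had log2 ratios of -0.61 (WT) and -0.92 (Fgf21KO), or -0.33 and -0.56 with total counts only. The coding sequences of each exchange pair were 63.8% (Psmb5 and Psmb8), 61.8% (Psmb6 and Psmb9) and 62.3% (Psmb7 and Psmb10) identical in GENCODE M21. Endothelial markers fell in 6 of 6 genes (5 with total counts only), with summed levels of 477 CPM in WS and 389 in KS, against 220.3 in WD and 211 in KD, and their part in the Psmb8 level, like that of the leukocyte markers, was not tested.

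**Figure D2:**
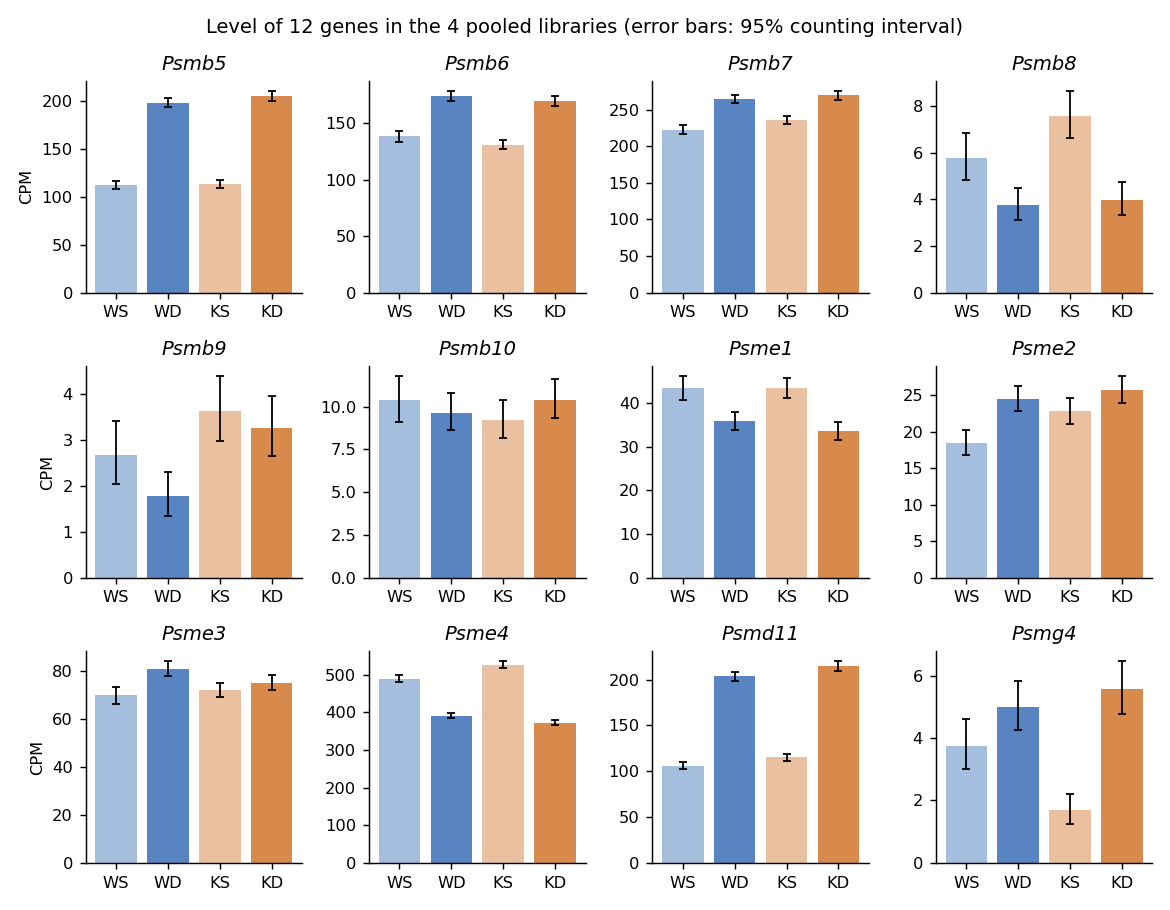
Level in CPM (y axes, starting at 0) of 12 genes in the 4 pooled libraries (x axes: WS, WD, KS, KD), with 95% counting intervals as error bars. Psmb5 and Psmd11 stand between 198 and 215 CPM in both denervated libraries, Psmb8, Psme1 and Psme4 are lower in both denervated libraries on the TMM scale (not Psme1 in WD with total counts only), and Psmg4 is lowest in KS at 1.68 CPM.

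The ATPases, the ring of the base that unfolds substrates and threads them into the core, were raised in every member. All 6 rose, 4 of them at least 1.5-fold in each genotype, with class medians of 0.68 (WT) and 0.64 (Fgf21KO). Psmc1 was at 129 (WS) and 140.4 (KS) CPM in sham and at 256 (WD) and 246 (KD) CPM in denervated muscle. It had the highest WT ratio of the 48 genes (0.98, interval 0.92 to 1.05), against 0.81 in Fgf21KO muscle. In the additive test over both genotypes its adjusted p was 1.76e-11. Psmc6 was at 110.3 CPM in WS and 125 in KS, against 189.7 in WD and 192 in KD. The lowest WT ratios of the class were those of Psmc2, at 126, 184, 132 and 187 CPM in WS, WD, KS and KD, and of Psmc3, at 229.9, 338, 229 and 335 CPM. The log2 ratios were 0.55 and 0.50 for Psmc2 and 0.55 in both genotypes for Psmc3. Psmc4 (0.65 in both genotypes) and Psmc5 (0.71 and 0.69) completed the ring.

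The non-ATPase subunits of the regulatory particle with Psmd symbols rose in 11 of 11 cases, 3 in the base and 8 in the lid. Of all genes 26.6% rose. The lid subunit Sem1 and the ubiquitin receptor Adrm1 are not in this tally, since their symbols fall outside the rule. In the additive test Sem1 did not pass (log2 fold change -0.14, adjusted p = 0.116), and Adrm1 rose (0.24, adjusted p = 0.0061). Psmd11, the lid subunit that also touches the core, was at 106 (WS) and 115 (KS) CPM in sham and at 203 (WD) and 215 (KD) CPM in denervated muscle (log2 ratios 0.94 and 0.90, adjusted p = 7.14e-12). Psmd4, a ubiquitin receptor of the base, was at 153 CPM in WS and 167 in KS, against 275 in WD and 274 in KD (0.84 and 0.71). Psmd14, the deubiquitinating enzyme of the lid, was at 63.5 (WS) and 69.9 (KS) CPM in sham and at 113 (WD) and 115 (KD) CPM in denervated muscle (0.84 and 0.72). These 3 genes stood apart from the scaffold subunits Psmd1 and Psmd2, whose WT ratios were 0.37 and 0.38, and from Psmd3, at 131 CPM in WS and 127 in KS, against 159 in WD and 152 in KD (0.28 and 0.26). The remaining Psmd genes of the lid were Psmd6, Psmd7 and Psmd12, with WT ratios of 0.38, 0.37 and 0.39, and Psmd8 and Psmd13, with 0.65 and 0.67.

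The 3 other Psmd genes encode chaperones that help to build the base and leave the finished particle. Psmd5 was at 17.2 (WS) and 16.97 (KS) CPM in sham and at 27.8 (WD) and 27.7 (KD) CPM in denervated muscle and rose (log2 fold change 0.70, adjusted p = 1.59e-06). Psmd10, the ankyrin-repeat protein gankyrin, was at 7.58, 12.4, 8.85 and 12.1 CPM and rose as well (0.58, adjusted p = 0.00103). Psmd9 was at 24.7 CPM in WS and 25.2 in KS, against 24.5 in WD and 22.7 in KD and did not pass (adjusted p = 0.519).

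The activators, caps that open the core without ATP or ubiquitin, did not share the rise of the regulatory particle. Psme4, a large nuclear activator linked to the degradation of acetylated histones, was at 489.7 CPM in WS and 527 in KS and lower after denervation, at 391 in WD and 373 in KD. Its log2 ratio was -0.32 (interval -0.36 to -0.29) in WT and -0.50 (-0.54 to -0.47) in Fgf21KO muscle, with adjusted p = 2.00e-05 in the additive test. Psme1 was at 43.3 (WS) and 43.4 (KS) CPM in sham and at 35.8 (WD) and 33.6 (KD) CPM in denervated muscle, or -0.28 and -0.37 (adjusted p = 0.00234). With total counts only the additive log2 fold changes were -0.09 for Psme4 (adjusted p = 0.195) and -6e-04 for Psme1 (adjusted p = 0.996), so both calls depend on the scaling. Psme2, the partner of Psme1 in the interferon-inducible cap, moved the other way, at 18.5 CPM in WS and 22.8 in KS, against 24.5 in WD and 25.8 in KD (log2 fold change 0.29, adjusted p = 0.0228). The ratio of Psme1 to Psme2 counts therefore went from 235% in WS to 146% in WD and from 190.0% in KS to 130.5% in KD, a within-library shift of -0.68 and -0.54. Psme3, a nuclear activator related to both, was at 69.7, 80.8, 71.9 and 75.0 CPM and did not pass (adjusted p = 0.138). Set against the lid subunit Psmd11, Psme4 counts went from 461% to 192% in WT and from 457% to 174% in Fgf21KO muscle. Psmd11 had the highest ratios of the lid and base class (0.94 in WT and 0.90 in Fgf21KO muscle), so this shift includes its rise. It does not show a fall of Psme4 by itself.

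Psmf1, an inhibitor of the core in vitro, was flat at 18.3 (WS) and 20.2 (KS) CPM in sham and at 17.4 (WD) and 19.3 (KD) CPM in denervated muscle (adjusted p = 0.606). The Psmg genes encode chaperones that assemble the alpha ring, and 3 of the 4 rose. Psmg1 was at 8.22, 10.6, 7.24 and 10.38 CPM in WS, WD, KS and KD (adjusted p = 0.0119), and Psmg2 at 18.3, 23.6, 17.7 and 23.7 (adjusted p = 0.00252). Psmg3 was at 5.595, 6.34, 7.10 and 6.24 CPM and did not pass (adjusted p = 0.966). Psmg4 was counted 87 times in WS and 50 in KS, against 163 in WD and 172 in KD, that is 3.74, 1.68, 4.99 and 5.56 CPM in this order. It was the only one of the 48 genes to pass the test with a log2 fold change of at least 1 (1.03, adjusted p = 0.00115), and its ratios in the genotypes were far apart, 0.41 (WT) and 1.68 (Fgf21KO), with KS the lowest of the 4 libraries. Psmc3ip was counted 34, 62, 65 and 65 times and Psme2b 13, 4, 10 and 13 times, and neither passed (adjusted p = 0.72 and 0.321). The Psme2b counts are too few to give a direction.

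Levels of different genes were compared per length, as CPM per kilobase of the principal transcript in GENCODE M21. On that scale the median of the 31 constitutive subunits was 83.2 in WS and 93.7 in KS, against 126 in WD and 123 in KD. Psma2 was the lowest and Psmb7 the highest subunit in all 4 libraries, 6.82-fold apart in WS and 6.44-fold in KS, against 5.67-fold in WD and 5.21-fold in KD. The longest principal transcript was used, 2911 bases for Psma2 against 914 for Psma7. Not divided by length, Psma2 was at 81.9 CPM in WS, above Psma1 (78.4) and Psma5 (57.6). Its rank and the spread therefore depend on the transcript chosen. The spread over subunits on the log2 scale (SD) was 0.67, 0.65, 0.66 and 0.64 in WS, WD, KS and KD. The inducible subunits were far below: per kilobase, Psmb8 was at 3.54 in WS and 2.31 in WD, and Psmb5 at 125 and 220.2.

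Both genotypes responded to denervation with much the same ordering of subunits. Over the 31 constitutive subunits the WD against WS and KD against KS log2 ratios had a Pearson r of 0.95 and a Spearman rho of 0.95, against 0.85 and 0.81 over all genes tested; the points share the scaling factors of the 4 libraries and genes are not independent, so these are descriptions. The ratios were on balance slightly lower in Fgf21KO muscle, with a median difference (KD against KS minus WD against WS) of -0.05 over the 48 genes and -0.0048 over all genes, but the former was 0.02, of the opposite sign, with total counts only. The counting interval of the difference lay below 0 in 15 of 48 genes (background 15.6%, not matched for count, though intervals narrow as counts rise). The genes with the lowest differences among the constitutive subunits were Psmd6 (-0.22, interval -0.30 to -0.13), Psma4 (-0.20, -0.29 to -0.11), Psmd12 (-0.18, -0.27 to -0.09) and Psmc1 (-0.18, -0.26 to -0.10), chosen after their values were seen. Psme4 had a difference of -0.18 as well (-0.23 to -0.13), the lower ratio being that of Fgf21KO muscle. Psmg4 had a difference with an interval above 0, at 1.28 (0.69 to 1.86). With 1 library per cell of the design the difference between genotypes has no test.

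**Figure D3:**
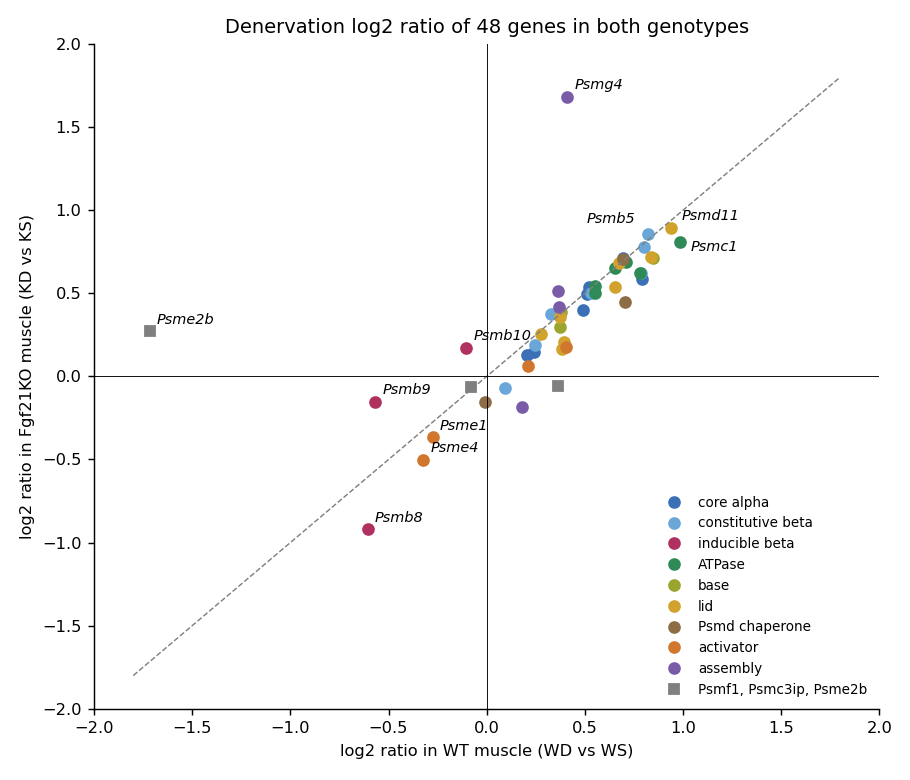
Denervation log2 ratio in Fgf21KO muscle (y axis, KD against KS) plotted against that in WT muscle (x axis, WD against WS), 1 point per gene, coloured by role; the dashed line marks equal ratios. The constitutive subunits lie along the line between 0.09 and 0.98 in WT muscle, and Psmg4 and the sparsely counted Psme2b lie away from it.

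No proteasome gene passed the test for genotype. In the additive test 0 of the 48 genes differed between Fgf21KO and WT muscle (edgeR quasi-likelihood test, background 0.673%). This test takes the sham and the denervated library of a genotype as its replicates. By the study's methods for expression work both legs belong to the same mice, so these libraries may not be independent animals. At an unadjusted p under 0.05 in this test there were 2 of the 48, Psmb9 and Psma2, against 1037 of all 13084 genes tested. DESeq2 called 0 of the 48. Psmb9 had the lowest adjusted p (0.41, log2 fold change 0.66, SE 0.26). Its level was higher in Fgf21KO than in WT muscle under both surgeries, with log2 ratios of 0.44 (interval -0.02 to 0.92) for KS against WS and 0.85 (0.40 to 1.37) for KD against WD. Beside it, 1 of the 22 interferon and antigen presentation genes listed for comparison passed the genotype test, Gbp2, an interferon-induced GTPase, at 10.2 CPM in WS and 6.71 in WD, against 17.5 in KS and 14.4 in KD (log2 fold change 0.94, adjusted p = 9.07e-05). The median log2 ratio of that list was 0.11 for KS against WS and 0.22 for KD against WD, or 0.03 and 0.22 with total counts only, and its part in the Psmb9 level was not tested. In sham muscle the median log2 ratio of KS against WS was 0.09 over the 48 genes and -0.0017 over all genes, with 21 intervals above 0 (background 17.1%) and 2 below (17.1%), and the median came to 0.01 with total counts only. By size, 2 genes were at least 1.5-fold apart between KS and WS (background 7.62%), 0 of them higher in KS (3.42%) and 2 lower (4.2%), Psmg4 at -1.12 and Psme2b at -0.63. In denervated muscle the median of KD against WD was 0.01, with 9 intervals above 0 (background 12.9%) and 5 below (15.4%). The background shares of intervals in both pairs were not matched for count, though intervals narrow as counts rise. Between KD and WD 2 genes were at least 1.5-fold apart (5.92%), both higher in KD (3.11%), Psmb9 and Psme2b, and 0 were lower (2.8%).

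Many partners of the proteasome rose. Of the partners and regulators 25 were analysed here, of which 14 rose (26.6% of all genes) and 2 fell (27%), or 22 and 1 with total counts only. Pomp, the maturation factor of the core, was at 62.8 CPM in WS and 67.8 in KS, against 133 in WD and 133 in KD (log2 ratios 1.08 and 0.97, adjusted p = 1.68e-12), a larger WT ratio than that of any of the 48 genes. Usp14, a deubiquitinase bound to the regulatory particle, was at 51.7, 97.6, 64.1 and 102 CPM (0.92 and 0.67, adjusted p = 1.10e-09). Further values of this list were chosen after they were seen. Nfe2l1, the transcription factor that restores proteasome genes when proteolysis is blocked, was at 981, 889.9, 924 and 833 CPM (log2 fold change -0.15, adjusted p = 0.0946), whereas its relative Nfe2l2 rose (0.57, adjusted p = 4.89e-07). Akirin2, which imports proteasomes into the nucleus, rose (0.67, adjusted p = 8.01e-07), and the ubiquitin receptor Adrm1 rose by a small amount (0.24, adjusted p = 0.0061), while Sem1, the smallest lid subunit, did not pass (-0.14, adjusted p = 0.116). The 2 that fell were Zfand5 (-0.49) and Ubqln4 (-0.26), of which Zfand5 kept its call with total counts only.

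The ubiquitin genes diverged. Rps27a, a fusion of ubiquitin and a ribosomal protein, was at 146 (WS) and 159 (KS) CPM in sham and at 351 (WD) and 372 (KD) CPM in denervated muscle (log2 ratios 1.27 and 1.22, adjusted p = 7.41e-15). The polyubiquitin gene Ubb was at 849.9, 645, 896 and 669.98 CPM in WS, WD, KS and KD and fell (-0.41, adjusted p = 2.13e-05). Both ubiquitin-activating enzymes rose in the additive test, Uba1 by 0.23 and Uba6 by 0.53 on the log2 scale. The pairs differed for Uba6, at 0.23 (interval -0.04 to 0.52) in WT and 0.81 (0.54 to 1.09) in Fgf21KO muscle. Of the 4 ubiquitin genes analysed here 3 thus rose and 1 fell, or 3 and 0 with total counts only, where the call of Ubb was lost. Of the 3 atrophy ligases analysed here 2 rose: Fbxo30 was at 20.3, 58.4, 21.9 and 55.4 CPM and Fbxo32 at 292, 638, 270.3 and 664. Fbxo21 did not pass (adjusted p = 0.215), and Trim63 was not analysed here.

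**Figure D4:**
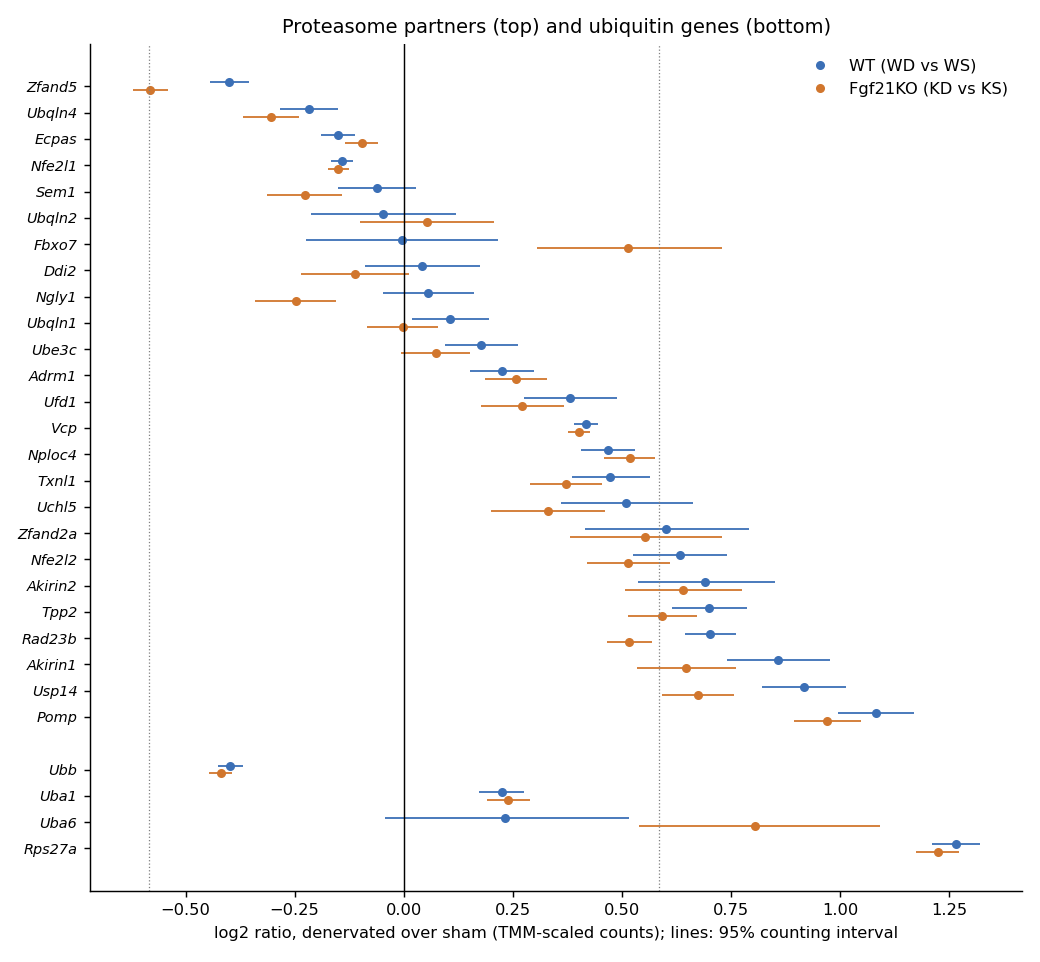
Log2 ratio of denervated over sham muscle (x axis) for 25 proteasome partners and 4 ubiquitin genes (y axis), in WT (blue) and Fgf21KO (orange) muscle, with 95% counting intervals as lines and dotted lines at 1.5-fold. Pomp and Rps27a lie between 0.97 and 1.27 in both genotypes, and Zfand5 and Ubb lie below 0 in both on the TMM scale (Ubb was not called with total counts only).

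The genes that share interferon control with the immunoproteasome moved in both directions, as all genes did. Of 22 listed interferon and antigen presentation genes 4 rose and 7 fell, where 26.6% of all genes rose and 27% fell. With total counts only 8 rose and 1 (Gbp7) fell. The class II genes H2-Aa and H2-Ab1, carried by antigen-presenting cells, rose (9.12, 19.9, 8.82 and 23.7 CPM for H2-Aa, and 7.96, 16.8, 7.17 and 15.97 for H2-Ab1, in WS, WD, KS and KD). Cd74 and Ciita were the others that passed as higher. Ciita was sparsely counted, 12, 15, 12 and 59 times in WS, WD, KS and KD. Its log2 ratio was -0.15 (interval -1.36 to 1.06) in WT and 2.06 in Fgf21KO muscle, so its call rests on KD. Isg15, an interferon-induced ubiquitin-like protein, was at 2.54, 1.23, 1.48 and 0.97 CPM and fell (log2 fold change -0.84, adjusted p = 0.034), beside Gbp2, Gbp7, Irf1, H2-D1, H2-K1 and Tapbp. Tap1, the neighbour of Psmb9 on the opposite strand, was at 5.90, 3.80, 6.33 and 5.53 CPM (adjusted p = 0.083). The median denervation log2 ratio of the list was -0.23 in WT and -0.14 in Fgf21KO muscle. Among cell type markers the largest leukocyte difference was that of Cd68 (0.99, 10.7, 1.08 and 10.8 CPM in WS, WD, KS and KD). Adgre1, Csf1r and Mrc1 had WT log2 ratios of 1.14, 1.05 and 1.15. Of the endothelial genes Cdh5, Kdr and Tie1 were at least 2-fold lower in WD than in WS (-1.26, -1.27 and -1.25). Of the 6 fibro-adipogenic progenitor markers 3 fell (1 with total counts only) and 0 rose, with ratios of -1.21 and -0.72 for Col1a1 and 0.71 and -1.05 for Pi16, which did not pass (adjusted p = 0.568).

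Reads shared with other genes could affect some levels. In GENCODE M21, 12 of the 48 genes have a stretch of at least 100 bases at 95% identity or more in a transcript of another gene, mostly processed pseudogenes, and for 9 of them that gene was in the count table. Where it was counted, the copy held at most 3.78% of the counts of the proteasome gene (Gm3375 for Psmb5 in KS). Psme2 and Psme2b are 99.3% identical over 720 coding bases, so the split of reads between them is uncertain. Exons of 4 genes overlap another gene on the same strand and those of 10 on the opposite strand, Psmb8, Psmb9 and Psme1 among the latter. The library kit kept strand, but whether counting used it is not given in the sources used here.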

How the data were processed

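RNA of 4 pooled TA libraries was sequenced from a stranded mRNA kit. The deposited table holds the read count of each gene, not normalized, and every gene has at least 1 count in each library. The submitters' processing notes name FastQC and GRCm39; aligner and counter are not given in the sources used here. A second deposited table, named by the authors for FPKM, holds log2 values: each count was multiplied by a factor of its library and raised by 1 before the logarithm, which held for all 13825 genes within 1e-04. It was used only in alternatives. Neither table held columns of other samples.

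Genes averaging at least 10 counts (13084) were tested, with TMM scaling, log2 CPM at a prior count of 2 and 95% counting intervals (exact conditional binomial). Denervation and genotype were tested over all 4 libraries with edgeR 4.0.16 (glmQLFit and glmQLFTest, additive model, common biological coefficient of variation 0.0681, adjusted p below 0.05) in R 4.3.3. The interaction could not be tested. P-values measure only the spread between these pooled libraries. On simulated counts for the denervation test (200 changed of 13084 genes), 69.7% of 1.5-fold and 91.7% of 2-fold changes were recovered, with a median of 6 false calls. The simulation took the fitted variation and held no genotype effect and no interaction. It therefore cannot speak to variation between animals or to genes that respond differently in the genotypes. Differences of at least 1.5-fold and 2-fold were counted without a test.

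Groups came from the sample titles. Members and lists were chosen with earlier results of these data known. Values in all 4 libraries are given for Psmb5 to Psmb10, Psme1 to Psme4, Psmf1, the 2 highest and 2 lowest genes of each class by WD against WS, and genes at least 2-fold apart in any pair, with a few others; of context lists, genes at least 2-fold apart in WD against WS or, if fewer than 2, the 2 with the largest absolute ratio are named. Some genes of the context lists are not reported here. The list of atrophy ligases held Fbxo30 also under the name Musa1. Alternatives were DESeq2 1.42.0 (size factors and Wald test), total counts, TMM without mitochondrially encoded genes, no count filter or a mean of at least 50, a prior count of 0.125 or 5, the authors' scaled table with a pseudocount of 1 or 0.1, edgeR's exact test at an assumed coefficient of variation of 0.1, and a 2-fold minimum on the tested genes. Promoters were RefSeq's on GRCm38.p6, and alignments used Python 3.11.15, Biopython 1.88 and BLAST 2.17.0.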

Additional observations from a re-analysis of the deposited data

Results flagged for a closer look

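On the TMM scale the denervation log2 ratio of 5 genes had opposite signs in WT and Fgf21KO muscle, each on 1 library per group, and the difference (KD against KS minus WD against WS) was not tested. Psmb2 had ratios of 0.09 (WT) and -0.07 (Fgf21KO), a difference of -0.16 with a counting interval of -0.28 to -0.04. The others had counting intervals that include 0. Psmb10 had ratios of -0.10 and 0.17, a difference of 0.28 (-0.06 to 0.61). Psmg3 had ratios of 0.18 and -0.19, a difference of -0.36 (-0.79 to 0.06). Psmc3ip had ratios of 0.36 and -0.06, a difference of -0.42 (-1.20 to 0.36), from 34 to 65 counts. Psme2b had ratios of -1.72 and 0.27, a difference of 1.99 (-0.02 to 3.99), from 4 to 13 counts. With total counts only, 4 of the 5 had positive ratios in both genotypes, Psmb2 at 0.38 and 0.29, Psmb10 at 0.18 and 0.53, Psmg3 at 0.46 and 0.17 and Psmc3ip at 0.63 and 0.29, and Psme2b kept opposite signs (-1.50 and 0.57). None of the 5 passed the additive denervation test under TMM scaling, and with total counts only Psmb2 did (log2 fold change 0.33, adjusted p = 0.00188).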

How the results depend on the processing

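No paired analysis was possible because only 1 library stands for each group and no replicate numbers link them, so no library could be left out either. Of the summary results under alternatives 388 stayed within 1.5 times (counts) or the counting interval (medians) and 39 did not; of single-gene ratios 1614 stayed within their counting interval and 110 moved, all of the latter with total counts only. With total counts only, 34 genes were at least 1.5-fold and 10 at least 2-fold apart in WD against WS (18 and 1 with TMM), and 30 and 12 in KD against KS (16 and 1). The WD against WS medians were then 0.68 (all 48), 0.80 (alpha), 0.57 (beta), 0.82 (constitutive beta), 0.97 (ATPase), 0.81 (lid and base) and 0.00797 (activator), and those of KD against KS were 0.77, 0.85, 0.64, 0.86, 0.996, 0.77 and 0.42 in the same order, 0.20 for inducible beta and 0.82 for assembly. Those of KS against WS were 0.0114 (all 48), 0.00496 (constitutive beta), -0.0197 (ATPase) and 0.00525 (lid and base). Of 337 medians under alternatives 10 differed in sign from the reported one. With total counts only these were the activators in WD against WS (-0.28 before) and KS against WS (-0.0363), the inducible beta genes in KD against KS (-0.15 before), the ATPases in KS against WS (0.06 before) and KD against WD (-0.00443), and the difference between genotypes (0.0215). The activators in KD against KS changed sign with a mean count of at least 50 (0.06 before), and the ATPases in KD against WD, at 0.0018 before, with DESeq2 size factors and with both forms of the deposited values. With total counts only, the number of genes called for denervation stayed at 38 of 48, of which 35 were shared with TMM: Psmb8, Psme1 and Psme4 were lost, and Psma6, Psmb2 and Psme3 were gained. With a mean count of at least 50, which drops Psme2b, the activator medians were -0.0282 in WT and -0.15 in Fgf21KO muscle, 0 genes were 2-fold apart in WD against WS and in KD against WD, and 1 was 1.5-fold apart in KS against WS and in KD against WD. A prior count of 5 left 1 gene 1.5-fold apart in KS against WS. The deposited log2 values with a pseudocount of 1 left 1 gene 1.5-fold apart in KS against WS and 1 in KD against WD, and 0 genes 2-fold apart in WD against WS, KS against WS or KD against WD. The exact test left 0 genes 2-fold apart in KS against WS and in KD against WD. A 2-fold minimum on the tested genes left 1 of 38 denervation calls, Psmg4. DESeq2's Wald test called 34, without Psma3, Psme2, Psmg1 and Psmg2. For Psmg4, Psme2b and the inducible beta genes, low counts limit the precision. Beyond the construction of each alternative, the cause of these differences was not tested.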
